A study of Mus musculus with 32 samples.

Results

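Cell cycle genes were followed in islets, in macrophages (MΦs), endothelial cells (ECs), and β cells, before, during, and after a pulse of VEGF-A. The set holds 43 mouse genes chosen by their function, out of 22850 genes in the expression table, and each was found once by its symbol. By role they fall into 8 G1 cyclins and kinases, a group of 6 with the kinase inhibitors and Rb1, 4 transcription factors, 9 genes of DNA replication, and 16 genes of mitosis.

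Expression was measured by RNA-sequencing of cells sorted from dispersed islets of adult βVEGF-A mice that carry TetO-VEGF-A and RIP-rtTA together with MIP-GFP, on a C57BL/6 background. Mice of every group, No Dox included, carried all 3 transgenes. The rat Ins2 promoter of RIP-rtTA places the transactivator in β cells, where doxycycline (Dox) turns on human VEGF-A from TetO-VEGF-A, and the mouse Ins1 promoter of MIP-GFP labels β cells green. No Dox mice received no Dox, 1wk Dox mice received it for 1 week, and 1wk WD mice were studied 1 week after it was withdrawn (WD). β cells were sorted as GFP+ cells without CD31 or CD11b, ECs by CD31 on their surface, and MΦs by CD11b, and each library pooled islets of several mice. No Dox libraries numbered 4 for each cell type. Of 1wk Dox there were 5 β cell libraries, 1 EC library, and 2 MΦ libraries, and of 1wk WD 3, 5, and 4, for 32 in all.

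A cell that leaves rest makes D-type cyclins, which pair with Cdk4 and Cdk6 and relieve the hold of Rb1 on E2F factors. E2F factors then switch on cyclin E and the replication genes, and later FoxM1 and the MuvB complex switch on the kinases, motors, and checkpoint proteins of mitosis, so transcripts of the later roles are abundant mainly in dividing cells. Kinase inhibitors of the Cip/Kip family (Cdkn1a, Cdkn1b, Cdkn1c) and the INK4 family (Cdkn2a, Cdkn2c) act against these steps. Adult β cells and unstimulated capillary ECs divide rarely, and tissue MΦs can divide in place.

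The promoter is where E2F and FoxM1 with MuvB act, so it was read for members of the transcription factor, replication, and mitosis roles called in most comparisons. Of these, Mki67, Bub1b, and E2f8 were called in 3 comparisons each, as was E2f2, which has 2 promoter windows and is not printed, and Mcm5 was added after its values were seen, as a replication gene called both within MΦs and between cell types. Cdkn1a, an inhibitor outside these roles, was also called in 3. The stretches are the 250 bases before the transcript start from RefSeq (GRCm38.p6, a build other than the mm9 of the expression table), written 5′ to 3′ on the strand of the gene. Capitals mark E2F sites on either strand (TTCGCGC as the first form, TTGGCGC as the second, TTCCCGC as the third, and TTGCCGC as the last), CHR elements (TTTGAA in one form and TTCGAA in the other), and CCAAT boxes, and an E2F site can overlap a CCAAT box or another E2F site.
Mki67, chr7:135716380-135716629, minus strand: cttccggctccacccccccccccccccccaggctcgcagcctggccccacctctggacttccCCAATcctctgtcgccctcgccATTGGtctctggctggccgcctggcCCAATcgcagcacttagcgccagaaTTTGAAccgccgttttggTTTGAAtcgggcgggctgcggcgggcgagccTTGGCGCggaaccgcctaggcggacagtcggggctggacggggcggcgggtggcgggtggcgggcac
Bub1b, chr2:118597961-118598210, plus strand: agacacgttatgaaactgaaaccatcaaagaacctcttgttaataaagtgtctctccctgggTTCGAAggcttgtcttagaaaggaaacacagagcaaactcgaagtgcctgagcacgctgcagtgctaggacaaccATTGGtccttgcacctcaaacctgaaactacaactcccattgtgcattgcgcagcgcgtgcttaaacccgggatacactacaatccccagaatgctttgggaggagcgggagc
E2f8, chr7:48881597-48881846, minus strand: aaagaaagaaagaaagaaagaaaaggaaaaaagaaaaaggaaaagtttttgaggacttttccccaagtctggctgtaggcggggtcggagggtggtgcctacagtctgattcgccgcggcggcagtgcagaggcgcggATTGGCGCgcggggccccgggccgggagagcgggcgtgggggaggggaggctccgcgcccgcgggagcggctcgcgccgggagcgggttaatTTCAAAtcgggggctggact
Mcm5, chr8:75109259-75109508, plus strand: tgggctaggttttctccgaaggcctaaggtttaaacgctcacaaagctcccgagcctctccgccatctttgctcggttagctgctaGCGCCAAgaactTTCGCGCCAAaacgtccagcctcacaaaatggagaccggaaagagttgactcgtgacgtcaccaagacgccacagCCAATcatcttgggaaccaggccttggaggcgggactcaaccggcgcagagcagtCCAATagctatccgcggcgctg
The Mki67 stretch held CHR elements 116 and 98 bases before the start with 3 CCAAT boxes upstream of them, and an E2F site 67 bases before it. The Mcm5 stretch held 3 E2F sites and no CHR element, and that of E2f8 held an E2F site that overlaps a CCAAT box and a CHR element 20 bases before the start. Promoter windows of 300 bases (to 50 bases past the start) were found for 33 of the 43 members, 39 windows in all. A CHR element was present in 11 of 13 windows of mitosis members (84.6%), in 2 of 4 of transcription factors (50%), in 2 of 9 of replication members (22.2%), and in none of the 13 windows of the 2 G1 groups, against 19.2% of all 32851 windows. E2F sites were in 6 of 9 replication windows (66.7%), 2 of 4 windows of transcription factors (50%), 2 of 7 of the inhibitors and Rb1 (28.6%), 3 of 13 mitosis windows (23.1%), and 1 of 6 of the G1 cyclins and kinases (16.7%), against 9.57% of all windows, and a CCAAT box was in 92.3% and 88.9% of mitosis and replication windows, against 37.4% of all. A match describes the letters of a window and is no evidence of binding.

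Values are scores, the authors' normalized expression, with 1 as the lowest, and they are not divided by transcript length, so levels are compared between libraries and never between genes. Sums of β cell, endothelial, and MΦ markers were each highest in the cells sorted for them, in all 32 libraries. β cell libraries differed widely in other cells' markers: 10 stromal and pericyte markers had sums of 1031 to 540417 in No Dox libraries, 107869 to 505631 in 1wk Dox libraries, and 25966 to 369149 in 1wk WD libraries. Acinar markers reached 12695437 in β cell and 11524275 in MΦ libraries at No Dox. In bulk samples, fewer cells of a type and less RNA per cell cannot be told apart. A gene is called where log2(score + 1) differed by a fold change of 2 or more with an adjusted p under 0.05 (limma, Benjamini-Hochberg over all genes whose mean score reached 20 in a group). These p-values measure the spread between pooled libraries.

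**Figure D1:**
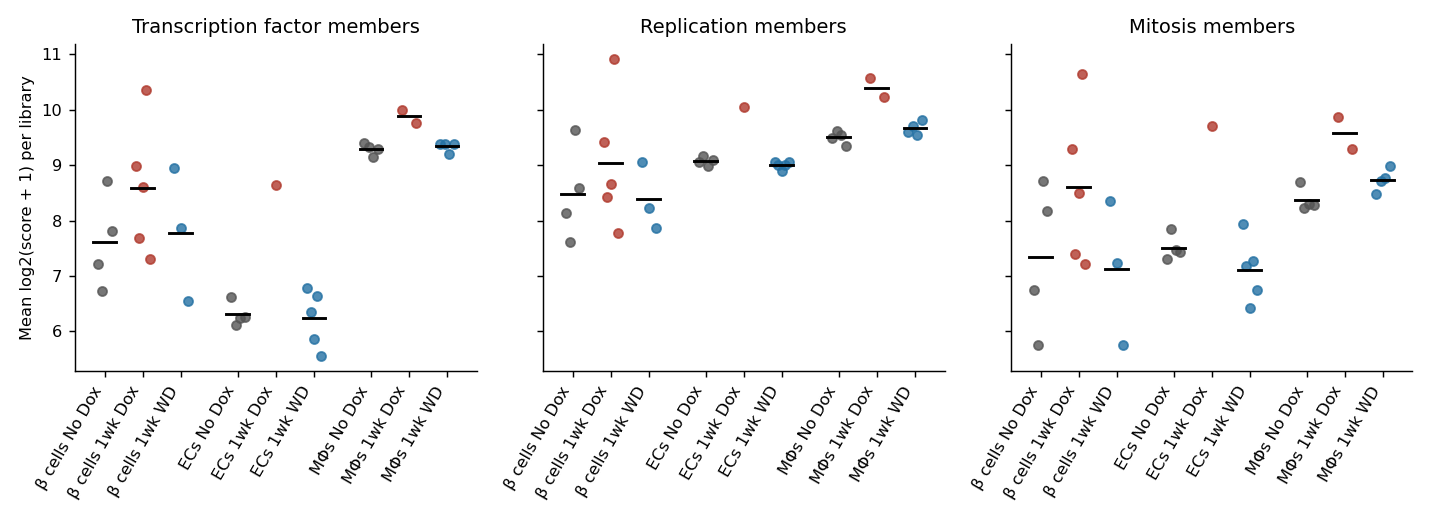
Mean log2(score + 1) of the transcription factor, replication, and mitosis members in each library (points), with the group mean (bar) where there is more than 1 library. The single 1wk Dox EC library and the 2 1wk Dox MΦ libraries lie above all other libraries of their cell type in each panel, while β cell groups overlap.

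At No Dox, MΦs held the highest mean log2(score + 1) of 25 of the 43 members, ECs of 13, and β cells of 5. By mean score the highest cell type differs for Ccnb1, Rrm2, Tyms, and Aurka. All 4 transcription factors, 6 of 9 replication genes, and 11 of 16 mitosis genes were highest in MΦs, and 5 of the 6 inhibitors and Rb1 were highest in ECs. These are ranks of means. The lead over the next cell type was called only for Ccnd3, E2f2, E2f8, Mki67, Aurkb, and Bub1b in MΦs and Ccnd2 in β cells. The test called 16 members between MΦs and β cells, 13 of them higher in MΦs (43.2% of 16380 genes were called), 12 between ECs and β cells, 6 each way (37.7%), and 12 between ECs and MΦs, 11 of them lower in ECs (33.5%). The share of members called is under that of all genes in each comparison, so the number of calls sets nothing apart.

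D-type cyclins differed by cell type in their kind. Ccnd2, a D cyclin with a known part in β cell growth, scored 12771, 13386, 6896, and 4971 in β cells, 2485, 2368, 2620, and 2163 in ECs, and 2818, 2888, 2421, and 2250 in MΦs. Every β cell library lay above every EC and MΦ library, with a log2 difference of -1.86 ± 0.27 (SE) in ECs (adjusted p = 0.000168) and -1.76 ± 0.27 in MΦs (0.000215). Ccnd3, the D cyclin typical of blood cells, scored 18390, 10876, 16222, and 10976 in MΦs, 3867, 3221, 3363, and 3000 in ECs, and 1206, 1386, 2361, and 2825 in β cells. Its log2 level in MΦs was 2.91 ± 0.27 above β cells (adjusted p = 5.13e-06) and that in ECs 2.04 below MΦs (log2 difference -2.04 ± 0.27, 7.49e-05), and the groups did not overlap. Ccnd1 passed no call: it scored 6333, 5715, 6187, and 4867 in ECs, 7340, 5718, 6514, and 6074 in MΦs, and 5331, 2550, 2678, and 3601 in β cells.

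Cdk6, a partner of the D cyclins, scored 15764, 10826, 17471, and 12500 in MΦs and 1732, 1757, 1487, and 1971 in ECs at No Dox. In β cells it scored 155, 110, 5789, and 7862, so that the 4 libraries fell into a low and a high pair. It was called between MΦs and β cells (log2 difference 3.88 ± 1.19, adjusted p = 0.016) and not between ECs and MΦs (-3.01 ± 1.19, 0.0609), although those groups did not overlap. The fit shared 1 estimate of the spread over the 3 cell types, and Cdk6 was called between ECs and MΦs with only those 2 groups fitted, with array weights, and without any single β cell No Dox library. In the low pair the stromal marker Pdgfrb was at 80 and 66, and in the high pair at 13692 and 49477, and its part in the Cdk6 level was not tested.

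Among inhibitors, Cdkn1a (p21) scored 13873, 11516, 13955, and 15933 in ECs, 5889, 7109, 6969, and 7613 in MΦs, and 2276, 1617, 2522, and 3899 in β cells. No library of one cell type reached another, and the log2 difference from β cells was 2.48 ± 0.22 in ECs (adjusted p = 4.57e-06) and 1.48 ± 0.22 in MΦs (0.000172). Between ECs and MΦs it was 1.00 ± 0.22 (adjusted p = 0.00324), a fold change just under 2. Cdkn2a, whose locus encodes the p16 and Arf inhibitors, scored 309, 222, 305, and 313 in ECs and 49, 1, 52, and 13 in MΦs (log2 difference 4.11 ± 0.87, 0.00223). The scores of 1 and 13 are too low for the size of this difference to be read. Rb1 was higher in ECs and MΦs than in β cells, by 1.63 ± 0.13 and 1.50 ± 0.13 on the log2 scale (2.31e-06 and 3.62e-06).

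Of the transcription factors, E2f2 had the widest spread between cell types. It scored 1803, 1421, 1569, and 1855 in MΦs, 236, 392, 668, and 226 in β cells, and 80, 42, 37, and 37 in ECs, with no overlap, and each of the 3 differences was called. E2f8, an E2F that represses, scored 649 to 835 in MΦs, 24 to 321 in β cells, and 31 to 69 in ECs, and differed between MΦs and both other cell types (log2 difference 3.23 ± 0.67 from β cells, adjusted p = 0.00165). Mki67, the gene of the Ki67 antigen used to mark dividing cells, scored 8625, 7880, 12226, and 5586 in MΦs, 1852, 3545, 1953, and 2509 in ECs, and 1619, 1320, 5660, and 3882 in β cells. It was 1.66 ± 0.43 higher in MΦs than in β cells on the log2 scale (0.00677), with overlap at 1 library of each, and 1.79 lower in ECs than in MΦs (log2 difference -1.79 ± 0.43, 0.00518), without overlap. Top2a, Aurkb, Bub1b, Kif11, and Rrm2 were also called lower in ECs than in MΦs. Without β cell libraries 3 and 4, in which stromal and acinar markers were high, 29 members were called between MΦs and β cells and 23 between ECs and β cells (49.3 and 45.4% of all genes were called in those fits). Without libraries 1 and 2, in which stromal markers were lowest, the counts were 14 and 15 (43 and 37.8%), and Mki67, Bub1b, and Mcm5 were no longer called between MΦs and β cells. The median log2 difference of the 43 members between MΦs and β cells was 0.96 with all libraries (35 higher in MΦs), 1.84 without libraries 3 and 4, and 0.06 without 1 and 2 (22 higher). Between ECs and β cells it was 0.40 (25 higher in ECs), 0.94, and -0.20 (16 higher), so its direction turned with the β cell libraries used.

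**Figure D2:**
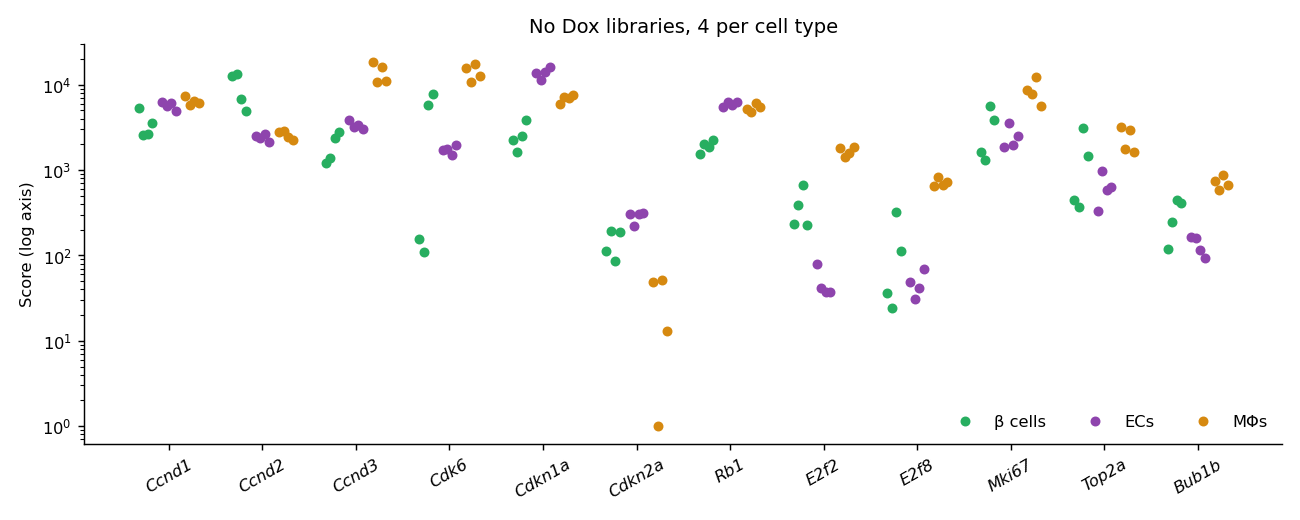
Scores of 12 members in the No Dox libraries of β cells, ECs, and MΦs (1 point per library, log axis). Ccnd2 is highest in all 4 β cell libraries, Cdkn1a in all 4 EC libraries, and Ccnd3, E2f2, and E2f8 in all 4 MΦ libraries, and Cdk6 splits the β cell libraries into pairs.

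In ECs at 1wk Dox there was 1 library, so its values have no replicate check and no test. In it 22 of the 43 members were at least 2-fold above the mean of the No Dox libraries and none at least 2-fold below, where 5.43% of 14047 genes were that far above and 5.27% that far below. By role, 15 of 16 mitosis genes, 3 of 4 transcription factors, 3 of 9 replication genes, 1 of 8 G1 cyclins and kinases (Ccne1), and 0 of the 6 inhibitors and Rb1 were at least 2-fold above. All 16 mitosis genes and all 9 replication genes lay above the whole No Dox range, and 35 of 43 members did in all (35.9% of all genes). The median log2 difference was 2.53 for mitosis genes, 2.66 for transcription factors, 0.68 for replication genes, 0.22 for G1 cyclins and kinases, and 0.06 for the inhibitors and Rb1.

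Mki67 scored 16060 in this library, against 1852 to 3545 at No Dox and 3210, 1525, 1516, 3140, and 959 at 1wk WD. Top2a, the topoisomerase that untangles chromosomes, scored 4173, against 331, 981, 588, and 627 at No Dox and 896, 425, 310, 554, and 194 at 1wk WD. Cdk1, the kinase that drives entry into mitosis, scored 968, against 156, 207, 202, and 110 at No Dox and 251, 117, 105, 162, and 94 at 1wk WD. All 3 genes were thus several-fold above every other EC library at 1wk Dox, and their No Dox and 1wk WD ranges overlapped. Foxm1, which activates mitotic genes, scored 1183, against 175, 265, 262, and 207 at No Dox and 293, 236, 140, 214, and 196 at 1wk WD. The largest differences were those of E2f8 (547 against 31 to 69, 3.55 on the log2 scale), Bub1 (590 against 52 to 71, 3.24), and Rrm2, a subunit of ribonucleotide reductase (621 against 45 to 86, 3.22).

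The G1 members differed less in this library and not all one way. Ccnd1 scored 10356, above its No Dox range of 4867 to 6333, while Ccnd2 scored 1584, below its range of 2163 to 2620, and Ccnd3 scored 2931, just below its range of 3000 to 3867. Cdkn1a scored 8825, below its range of 11516 to 15933, and Cdkn2c (p18) scored 448, above 288, 218, 206, and 278. Ccne1 scored 42, against 1 to 12, above the range but at scores too low for the size of the fold change to be read, so 1 of the 22 members counted as at least 2-fold above is uncertain. Cdk6 at 2057, against 1732, 1757, 1487, and 1971 at No Dox, and Cdkn1c (p57) at 204, against 209, 158, 170, and 153, differed little. Acinar markers summed to 205 in this library, against 63604 to 1714010 at No Dox, and endothelial markers to 743967, against 606632 to 641179. Their part in the result was not tested, and the library carries a later library number in the table header than the other EC libraries, which cannot be told apart from 1wk Dox.

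**Figure D3:**
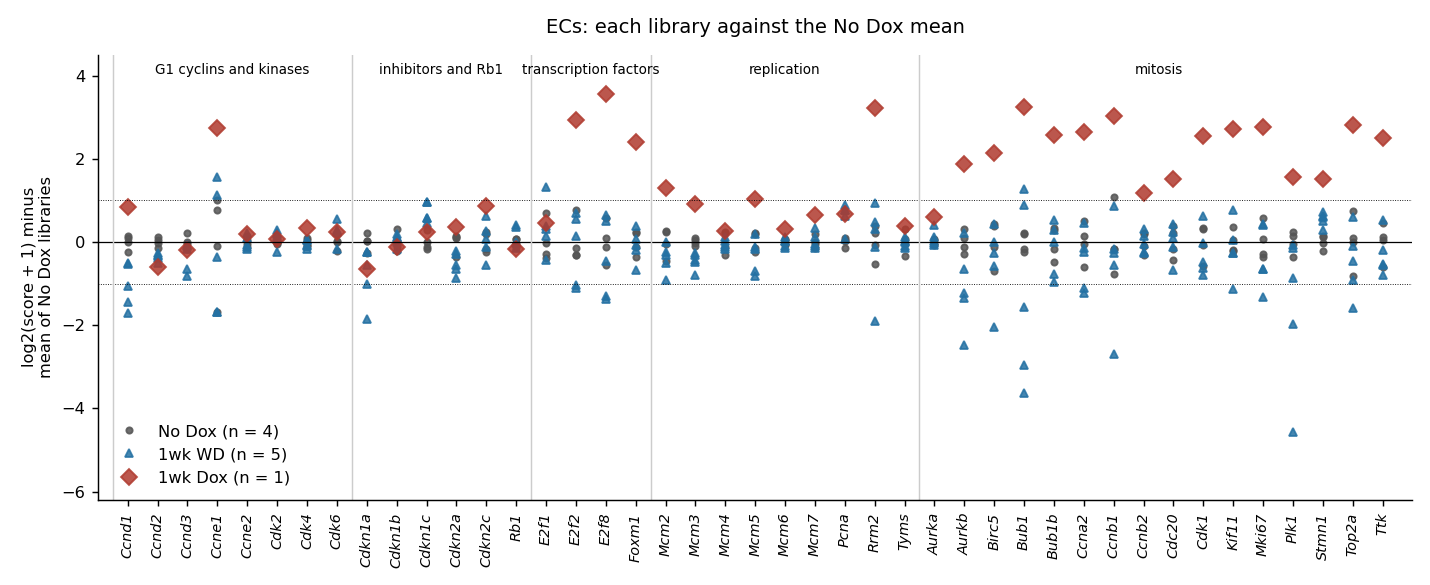
log2(score + 1) of each member in every EC library, minus the mean of the 4 No Dox libraries, ordered by role (dotted lines, 2-fold). The 1wk Dox library (diamonds) stands above both other groups for all 16 mitosis genes and close to them for most G1 cyclins, kinases, and inhibitors.

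After withdrawal, EC levels of most members lay below those of the 1wk Dox library. All 5 libraries were below the 1wk Dox library for 16 of 16 mitosis genes, 8 of 9 replication genes, and 3 of 4 transcription factors (25.9% of 14233 genes). Against No Dox, 1 of the 42 members tested was called, Ccnd1, and it fell (1.76% of 14167 genes were called, 0.487% as lower). Ccne1 was under the filter on low scores in both groups. Of the later roles, 14 of 16 mitosis genes had a lower mean at 1wk WD, with a median log2 change of -0.34, and 0 were called (0.00 over all genes).

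Ccnd1 (ENSMUSG00000070348, minus strand of mm9 chr7:152115836-152125774) scored 6333, 5715, 6187, and 4867 in ECs at No Dox and 4052, 3978, 2113, 2779, and 1748 at 1wk WD. All 5 libraries at 1wk WD were below all 4 at No Dox, and the log2 change was -1.05 ± 0.23 (limma, adjusted p = 0.025). The call was lost without No Dox library 1, 2, or 3 or 1wk WD library 3 or 5, each leaving 0 members called, and also with no filter on low scores, no trend of the spread, array weights, or a replicate block. Pcna, the replication clamp, and Stmn1, a microtubule-binding protein abundant in dividing cells, were higher at 1wk WD by 0.63 ± 0.15 and 0.55 ± 0.14 on the log2 scale (adjusted p = 0.0377 and 0.0474), both under a fold change of 2 (with Ccnd1, 3 members passed the adjusted p alone, and 3.9% of all genes did). Stmn1 scored 497, 567, 627, and 644 at No Dox and 964, 820, 893, 707, and 881 at 1wk WD, without overlap.

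Other G1 members of ECs at 1wk WD did not pass the test. Ccnd2 scored 1999, 1695, 1851, 1916, and 1939, below every No Dox library (log2 change -0.36 ± 0.10, adjusted p = 0.0682). Cdkn1c scored 255, 334, 256, 237, and 334, above every No Dox library (0.71 ± 0.19, 0.0633), and Cdkn1a scored 9381, 11658, 6820, 3786, and 11680 (-0.78 ± 0.28, 0.138). Ccnd3 scored 3114, 2963, 2129, 1911, and 3159, Cdk6 2060, 1529, 2124, 2538, and 2039, and Cdkn2c 258, 376, 166, 225, and 296, each overlapping No Dox. Stromal and pericyte markers summed to 16858 to 70818 at 1wk WD and 5637 to 12607 at No Dox. Endothelial markers summed to 458049 to 533498 at 1wk WD, against 606632 to 641179 at No Dox, and acinar markers to 697 to 62631, against 63604 to 1714010. The part of these markers in the EC differences at 1wk WD, that of Ccnd1 included, was not tested.

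In MΦs, 10 members were called between 1wk Dox and No Dox, and all 10 rose (2.26% of 15014 genes were called, 1.61% as higher). They were 5 mitosis genes (Stmn1, Ccnb1, Mki67, Ccna2, Kif11), 3 replication genes (Mcm2, Mcm5, Mcm7), and 2 transcription factors (Foxm1, E2f8), with 0 called among G1 cyclins and kinases or among the inhibitors and Rb1. Both 1wk Dox libraries were above all 4 No Dox libraries for 26 of 43 members, 13 of 16 mitosis genes and 8 of 9 replication genes among them (16.2% of all genes). The median log2 change was 1.20 for mitosis genes and 0.93 for replication genes, against 0.03 over all genes.

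Stmn1 scored 519, 550, 444, and 466 at No Dox, 1975 and 1450 at 1wk Dox, then 557, 629, 736, and 674 at 1wk WD. Its log2 change at 1wk Dox was 1.78 ± 0.21 (limma, adjusted p = 0.00167). Both 1wk Dox libraries were more than 2-fold above every No Dox library, and the 1wk WD libraries lay just above the No Dox range. Ccnb1, the cyclin B that activates Cdk1, scored 53, 55, 28, and 50 at No Dox, 324 and 168 at 1wk Dox, then 109, 123, 107, and 123 at 1wk WD (change at 1wk Dox 2.35 ± 0.47, 0.0184). Mki67 scored 8625, 7880, 12226, and 5586 at No Dox, 21479 and 16200 at 1wk Dox, then 7916, 10400, 10497, and 12226 at 1wk WD (1.18 ± 0.26, 0.0265). For these 3 genes no 1wk Dox library reached down to either other group.

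Ccna2, a cyclin of S phase and early mitosis, scored 627, 597, 542, and 450 at No Dox and 1570 and 964 at 1wk Dox (1.16 ± 0.23, adjusted p = 0.0187). Kif11, a spindle motor, scored 1277, 1457, 1018, and 946 at No Dox and 2916 and 1959 at 1wk Dox (1.05 ± 0.23, 0.025). Foxm1 scored 437, 289, 245, and 273 at No Dox and 1201 and 684 at 1wk Dox (1.58 ± 0.30, 0.0166). Library 4 was the higher of the 1wk Dox pair in all 3, and at 1wk WD they scored 683, 679, 617, and 699, 1233, 1122, 1245, and 1596, and 566, 439, 423, and 542. E2f8 scored 649, 835, 663, and 728 at No Dox, 1551 and 1514 at 1wk Dox, then 481, 828, 812, and 1031 at 1wk WD (1.10 ± 0.26, 0.036). E2f1 and E2f2, which activate, passed no call, with changes of -0.15 ± 0.28 and -0.17 ± 0.16.

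The replication members of MΦs that rose are subunits of the Mcm helicase, which unwinds DNA at origins. Mcm5 scored 497, 539, 365, and 466 at No Dox, 1406 and 1104 at 1wk Dox, then 581, 594, 608, and 643 at 1wk WD (change at 1wk Dox 1.43 ± 0.22, adjusted p = 0.00776). Mcm2 scored 493, 647, 301, and 341 at No Dox, 1157 and 888 at 1wk Dox, then 481, 367, 342, and 430 at 1wk WD (1.25 ± 0.31, 0.0405). Mcm7 scored 441, 551, 441, and 470 at No Dox, 1031 and 911 at 1wk Dox, then 482, 531, 508, and 660 at 1wk WD (1.03 ± 0.22, 0.022). Mcm6 passed the adjusted p and not the fold change (0.93 ± 0.18, 0.0176), and Mcm3, Mcm4, Rrm2, and Pcna had higher scores in both 1wk Dox libraries than in any No Dox library without passing the test.

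Top2a and Cdk1 in MΦs did not pass the test. Top2a scored 3191, 1755, 2924, and 1618 at No Dox, 5478 and 3777 at 1wk Dox, then 2157, 3103, 2963, and 3705 at 1wk WD (change at 1wk Dox 1.00 ± 0.29, adjusted p = 0.0714). Cdk1 scored 548, 143, 117, and 189 at No Dox, 574 and 372 at 1wk Dox, then 220, 132, 206, and 262 at 1wk WD (1.17 ± 0.53, 0.229), where No Dox library 1 overlaps the 1wk Dox pair.

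Among G1 members of MΦs, Ccnd3 scored 6425 and 7770 at 1wk Dox, then 14180, 8396, 11475, and 9218 at 1wk WD, and the 1wk Dox pair was below every No Dox library. It passed the adjusted p at 1wk Dox and not the fold change (log2 change -0.96 ± 0.25, 0.0474). Ccnd1 scored 6407 and 5174 at 1wk Dox, then 6602, 6963, 7142, and 7058 at 1wk WD, and Ccnd2 scored 1801 and 2437 and then 2223, 2821, 3270, and 2478, where the lower Ccnd2 library at 1wk Dox was under its No Dox range of 2250 to 2888. Cdk6 scored 11768 and 10606 at 1wk Dox, then 11107, 8399, 8929, and 8597 at 1wk WD. Cdkn1a scored 12050 and 8787 at 1wk Dox, then 8636, 17019, 11262, and 10227 at 1wk WD, above every No Dox library at both times, with log2 changes of 0.58 ± 0.23 (adjusted p = 0.173) and 0.73 ± 0.19 (0.0801). Cdkn2c scored 238, 117, 336, and 135 at No Dox, 475 and 309 at 1wk Dox, then 66, 186, 227, and 204 at 1wk WD, and Cdkn1c scored 25, 13, 6, and 138, then 26 and 26, then 71, 40, 49, and 34, with overlap.

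The MΦ calls at 1wk Dox rest on 2 libraries. Without library 4 no member was called, without library 5 only Stmn1 was, and without No Dox library 1 there were 6 calls (0, 0.327, and 1.57% of all genes were called in these fits). The first 2 of these fits leave a single 1wk Dox library, which is assumed to vary like the other MΦ groups. Members had a higher mean at 1wk Dox in 35 to 37 of 43 cases in these 3 fits, as in 36 of the full fit. The count also moved with the setting, to 5 with no filter on low scores, 3 with no trend of the spread on level, 1 with only the 2 groups fitted, and 16 with array weights. With a replicate block, library 5 holds a number that no other MΦ library has, so the block fits it exactly. That fit leaves library 4 alone for the change, with a median log2 change of the members of 0.93. Both libraries carry later library numbers in the table header than all other MΦ libraries, which cannot be told apart from 1wk Dox. Acinar markers summed to 821 and 3175 at 1wk Dox, against 26550 to 11524275 at No Dox, MΦ markers to 500036 and 615278 against 300942 to 427477, and endothelial markers to 4907 and 5992 against 2525 to 3327. Lymphocyte markers summed to 578 and 629 against 370 to 798, and the part of these markers in the result was not tested. Without No Dox library 2, where acinar markers were highest, 12 members and 3.28% of all genes were called.

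At 1wk WD no member of MΦs was called against No Dox (0.626% of 15014 genes were called). The mean was higher for 32 of 43, and the median log2 change was 0.22. By limma 1 member, Ccnb1, reached a fold change of 2 at an unadjusted p under 0.05 (1.34 ± 0.38, adjusted p = 0.0976), as 4.97% of all genes did. All 4 libraries at 1wk WD lay above the No Dox range for Ccnb1, Stmn1, Mcm4, Mcm5, and Cdkn1a, and below it for E2f2. How many of all genes did so is not given. Against 1wk Dox, Stmn1 was called and fell (log2 change -1.39 ± 0.21, adjusted p = 0.0359; 0.0866% of genes were called), and the call was lost without any of 7 of the 10 libraries (No Dox 4, either 1wk Dox library, or any 1wk WD library). All 16 mitosis and all 9 replication genes had lower means than at 1wk Dox, and all 4 libraries at 1wk WD were below both 1wk Dox libraries for 26 members (16.6% of all genes). The comparisons with No Dox share the No Dox libraries, and those with 1wk Dox share the 2 1wk Dox libraries.

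**Figure D4:**
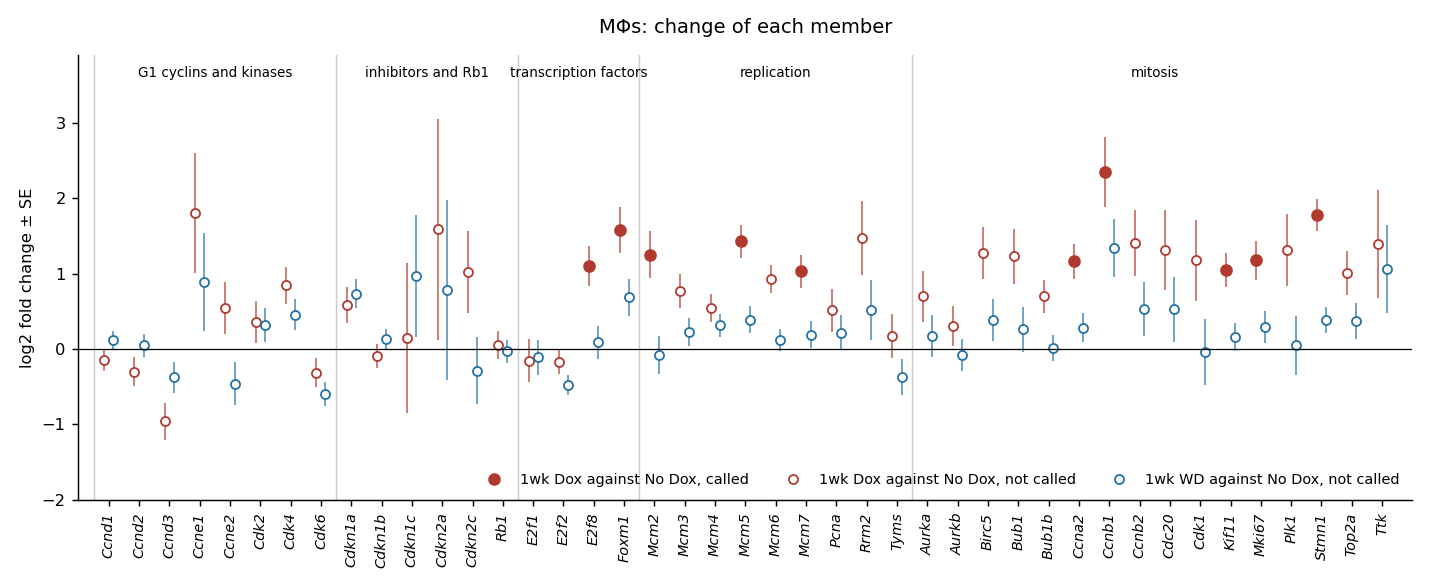
log2 fold change of each member in MΦs with its standard error, at 1wk Dox (red) and 1wk WD (blue) against the same No Dox libraries; filled points were called. Called members lie only among transcription factors, replication, and mitosis genes, and for the 10 called genes the blue point lies nearer 0 than the red.

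The change from No Dox to 1wk WD differed between ECs and MΦs for 2 members by an interaction test, Ccnd1 and Cdkn1a (1.4% of 15603 genes were called). The Ccnd1 change was 1.17 lower in ECs than in MΦs on the log2 scale (difference -1.17 ± 0.29, adjusted p = 0.0414), and that of Cdkn1a 1.51 lower (-1.51 ± 0.38, 0.0495). Cdkn1a scores at 1wk WD lay above No Dox in every MΦ library, and in ECs 3 of 5 lay below the No Dox range. The 2 calls are close to the threshold, and leaving out single libraries left 0 to 2: there were 0 calls without any of the 4 EC No Dox libraries, EC 1wk WD library 3, MΦ No Dox library 2 or 3, or MΦ 1wk WD library 2, 3, or 4, and 1 without EC 1wk WD library 1 or 4, MΦ No Dox library 1 or 4, or MΦ 1wk WD library 1. Among the other members, 15 of 16 mitosis genes had a lower change in ECs than in MΦs and 0 were called.

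In β cells no member was called in any comparison: 0 of 43 at 1wk Dox against No Dox (0.0122% of 16346 genes were called), at 1wk WD against No Dox (0%), and at 1wk WD against 1wk Dox (0%). At an unadjusted p under 0.05 with a fold change of 2, limma gave 1, 1, and 2 members (4.04, 4.45, and 2.88% of all genes). At 1wk Dox 39 of 43 members had a higher mean than at No Dox, 16 of them at least 2-fold, all 16 mitosis genes were higher, and the median log2 change was 0.67 (0.03 over all genes). At 1wk WD 37 of 43 were lower than at 1wk Dox, 16 of them at least 2-fold, with a median log2 change of -0.63, and all 16 mitosis and all 9 replication genes were lower. The share of all genes at least 2-fold apart was not counted, so the 2-fold counts cannot be weighed against it. None of these differences passed the test, and every member overlapped between the groups in each of the 3 comparisons (2.55, 6.44, and 4.97% of all genes did not overlap).

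Mki67 scored 1619, 1320, 5660, and 3882 in β cells at No Dox, 9308, 3036, 5460, 17867, and 1620 at 1wk Dox, then 4843, 1986, and 400 at 1wk WD. Top2a scored 449, 367, 3075, and 1479, then 2809, 818, 1916, 9057, and 525, then 1684, 561, and 341. Cdk1 scored 99, 8, 268, and 125, then 634, 143, 239, 1329, and 118, then 267, 230, and 26. The same libraries were low or high in all 3 genes: library 4 was highest at 1wk Dox, library 3 lowest at 1wk WD, and No Dox libraries 1 and 2 were below 3 and 4. The log2 changes at 1wk Dox were 1.04 ± 0.82, 0.98 ± 0.87, and 2.12 ± 1.09 (adjusted p = 0.826, 0.845, and 0.738).

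Cdk6, Foxm1, and Cdkn2c were chosen because the study named them in β cells. Cdk6 scored 155, 110, 5789, and 7862 at No Dox, 4850, 1630, 2943, 11020, and 1484 at 1wk Dox, then 5824, 4673, and 798 at 1wk WD (log2 change 1.80 ± 1.29 at 1wk Dox and 1.57 ± 1.47 at 1wk WD, adjusted p = 0.809 and 0.74). Foxm1 scored 110, 26, 391, and 434, then 928, 237, 690, 1922, and 108, then 437, 327, and 170 (1.74 ± 0.95 and 0.95 ± 1.08, 0.744 and 0.79). Signs depended on the low pair at No Dox: without No Dox libraries 1 and 2 the Cdk6 change was -1.04 with 1wk Dox and -1.27 after withdrawal, and the Foxm1 change after withdrawal was -0.51. Cdkn2c scored 121, 185, 168, and 373, then 418, 148, 393, 413, and 220, then 155, 73, and 51, and its change at 1wk WD was -1.21 ± 0.55 from No Dox (0.61) and -1.81 ± 0.53 from 1wk Dox (0.643), with overlap.

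Of the D cyclins and inhibitors in β cells, none passed the test. Ccnd1 scored 5331, 2550, 2678, and 3601 at No Dox, 5108, 4508, 4663, 2529, and 3889 at 1wk Dox, then 2398, 2907, and 3786 at 1wk WD. Ccnd2 scored 6772, 9677, 8649, 5411, and 9020 at 1wk Dox, then 4354, 6956, and 9731 at 1wk WD, and Ccnd3 1908, 1261, 1256, 2488, and 1407 and then 3864, 3502, and 1396. Library 4 at 1wk Dox and library 1 at 1wk WD had the lowest Ccnd2 and the highest Ccnd3 of their groups. Cdkn1a scored 3852, 4156, 3364, 3037, and 3680 at 1wk Dox, then 3608, 4029, and 3391 at 1wk WD, against 1617 to 3899 at No Dox (0.55 ± 0.22 and 0.58 ± 0.25, adjusted p = 0.662 and 0.601). Cdkn1c, an imprinted Cip/Kip inhibitor, scored 3, 1, 116, and 256 at No Dox, 262, 20, 130, 370, and 30 at 1wk Dox, then 292, 393, and 30 at 1wk WD, with the same low pair at No Dox as Cdk6.

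Levels of the mitosis members in β cell libraries varied with markers of β cells and of some other cells. Not every member went this way: Ccnd2 scored 12771 and 13386 in No Dox libraries 1 and 2, against 6896 and 4971 in 3 and 4. The mean log2(score + 1) of mitosis genes was 6.75, 5.76, 8.71, and 8.17 at No Dox, 9.30, 7.40, 8.50, 10.65, and 7.21 at 1wk Dox, then 8.36, 7.24, and 5.75 at 1wk WD. In the same order the mean of 11 β cell markers was 16.29, 16.20, 14.27, and 12.97, then 14.16, 15.16, 14.82, 13.25, and 15.27, then 13.50, 14.44, and 16.10. The 3 libraries with the lowest mitosis mean had the highest β cell marker mean, and the library with the highest mitosis mean, 1wk Dox library 4, had the second lowest. The mean of stromal markers was 5.20 and 4.33 in No Dox libraries 1 and 2, 10.48 in 1wk WD library 3, and 12.21 to 14.55 in the other libraries. The T cell marker Cd3e scored 3788 in 1wk Dox library 4, 2164 in 1wk WD library 1, 777 in No Dox library 3, and 133 or less elsewhere, and each of these 3 libraries had the highest mitosis mean of its group. Endothelial markers summed to 2570, 1869, 6320, and 12284 at No Dox, 69253, 23259, 33882, 10378, and 2132 at 1wk Dox, then 9033, 11609, and 19940 at 1wk WD. They were highest in 1wk Dox library 1, which had the second highest mitosis mean, and lower in library 4, which had the highest. The mean of MΦ markers was highest, at 9.26, in 1wk WD library 3, which had the lowest mitosis mean. Acinar marker sums ranged from 32624 to 12695437 at No Dox, then from 161 to 21639 at 1wk Dox, with 316 to 591724 after withdrawal. The part of these cells in the member levels was not tested.

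**Figure D5:**
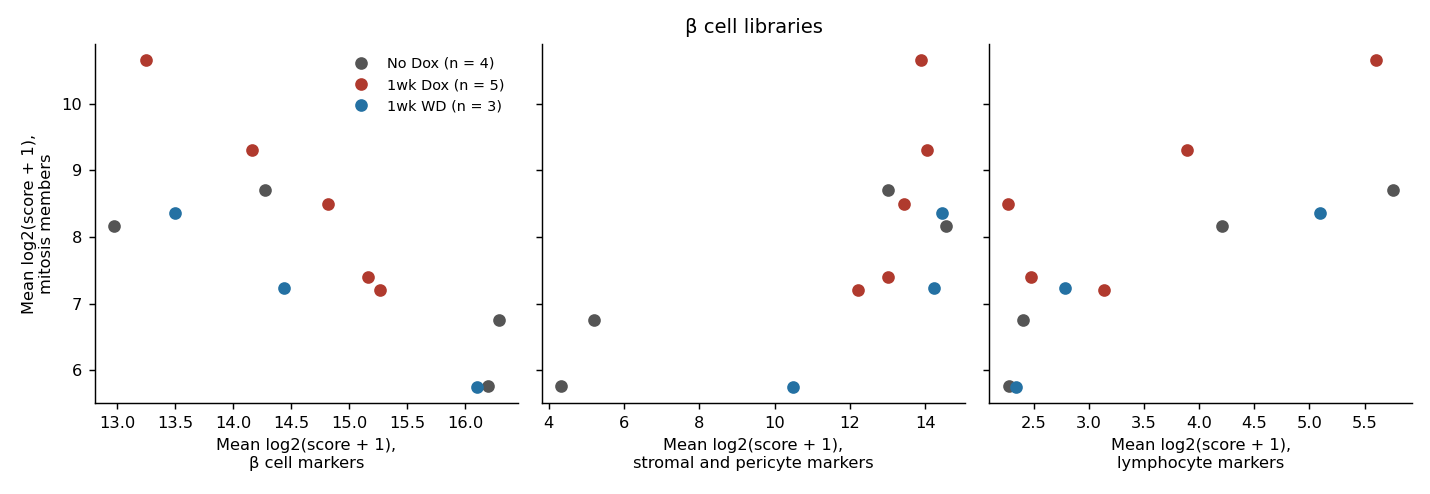
Mean log2(score + 1) of the 16 mitosis members (vertical) against that of β cell, stromal and pericyte, and lymphocyte markers (horizontal) in the 12 β cell libraries. The 3 libraries at the bottom, 2 at No Dox and 1 at 1wk WD, are those with the highest β cell markers and the lowest stromal markers.

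Counts in β cells depended on which libraries were left out. Without 1wk Dox library 4 the median log2 change of the members at 1wk Dox was 0.32 with 31 of 43 higher, and without No Dox libraries 1 and 2 it was 0.08 with 25 higher, in both cases with 0 called. Without No Dox libraries 3 and 4 it was 1.40, and Cdk6 and Cdkn1c were called at both 1wk Dox and 1wk WD (7.36 and 8.74% of all genes were called in those fits). At 1wk WD against 1wk Dox the median was -0.63, and -0.30 with 32 of 43 lower without 1wk Dox library 4 and -1.06 without 1wk Dox library 5. Without both 1wk Dox library 4 and 1wk WD library 1, the pair highest in Cd3e, it was -0.55 with 38 of 43 lower. At 1wk WD against No Dox it was -0.13 with 18 higher, and its sign depended on the libraries: it was -0.51 without No Dox libraries 1 and 2 and 0.63 with 33 higher without 3 and 4. Leaving out single libraries of these groups gave -0.37 (without 1wk WD library 1) to 0.26 (without 1wk WD library 3, which carries a later library number in the table header than the other β cell libraries).

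Genes of the pathway outside the 43 were counted in 3 lists, of replication, mitosis, and other regulators. In the 1wk Dox EC library 38 of 42 other mitosis genes and 13 of 32 other replication genes were at least 2-fold above the No Dox mean, and 8 of 37 other regulators were (5.43% of all genes). In MΦs at 1wk Dox, 5 of 42 other mitosis genes and 2 of 32 other replication genes were called and all rose (1.61% of all genes were called as higher), the largest being Tpx2 (log2 change 2.24 ± 0.46, adjusted p = 0.0204), Ube2c (1.97 ± 0.42, 0.0234), and Nusap1 (1.50 ± 0.34, 0.0297) for spindle assembly and exit from mitosis, and Rrm1 (1.14 ± 0.27, 0.0363) and Dtl (1.08 ± 0.28, 0.0454) for nucleotide supply and licensing control. None of the 36 other regulators tested was called there. In β cells 0 of these 3 lists' genes were called, 40 of 42 other mitosis genes had a higher mean at 1wk Dox (median log2 change 0.90), and 39 of 42 a lower mean at 1wk WD than at 1wk Dox. In ECs at 1wk WD 0 were called, with a median log2 change of -0.12 for other mitosis genes.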

How the data were processed

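RNA-sequencing values were taken from the table the authors deposited, in which each gene and library has a score, their normalized expression. Per the methods, 50-base paired-end reads of amplified cDNA were aligned to mm9 with TopHat (version 2.0 in the submitters' processing notes), and values were normalized by TMM in Avadis NGS; scores are whole, with 1 as the lowest, cannot be turned back into reads, and leave the depth unknown. Of 38 sample columns 32 were used, and 6, which match no sample of the series, were not. Amplification can widen the spread of low genes. Groups were taken from the labels. limma 3.58.1 (R 4.3.3) was fitted within each cell type, and over the No Dox libraries between cell types, on log2(score + 1), with a trend of the spread on level, over genes whose mean score reached 20 in a group; the fold changes of low genes are understated on this scale. Values by library are given, in the cell types where they are described, for members called within a cell type, for Cdk6, Foxm1, and Cdkn2c (named by the study), and for Mki67, Top2a, Cdk1, Ccnd1, Ccnd2, Ccnd3, Cdkn1a, and Cdkn1c; other pathway genes are given by counts, with at most the 3 with the largest change per list. The members and lists were chosen with earlier results of these data known. Fits were tested on simulated data. Other pseudocounts, filters, normalizations, spreads, a replicate block, and leaving out libraries were tried. Figures were drawn with matplotlib 3.10.9.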

Additional observations from a re-analysis of the deposited data

Results flagged for a closer look

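Over 144 sets of libraries, 19 genes and 5 role means in groups of 4 or 5, a library stood apart from the rest of its group in 5, where chance gives about 1 in 20. Ccnb1 was at 28 in MΦ No Dox library 3, and Cdkn2c at 66 in MΦ 1wk WD library 1. Mean log2(score + 1) of G1 cyclins and kinases was 10.18 in MΦ No Dox library 4, that of mitosis genes 8.702 in MΦ No Dox library 1, and that of transcription factors 9.215 in MΦ 1wk WD library 3. The change from No Dox to 1wk WD differed between ECs and MΦs by the interaction test for Ccnd1 (log2 difference -1.17) and Cdkn1a (-1.51).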

How the results depend on the processing

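Sets of libraries left out for their markers, the stromal and acinar pairs of β cells and the T cell pair, were chosen after seeing the data. With single libraries left out, members called ranged from 0 to 0 in each of the 3 β cell comparisons and in MΦs at 1wk WD against No Dox, 0 to 1 in ECs at 1wk WD, 0 to 12 in MΦs at 1wk Dox, 0 to 2 in MΦs at 1wk WD against 1wk Dox, 0 to 2 for the interaction, 9 to 14 between ECs and β cells, 15 to 22 between MΦs and β cells, and 10 to 14 between ECs and MΦs, and 21 to 22 members were at least 2-fold higher in the 1wk Dox EC library. In ECs at 1wk WD 0 were called with no filter, no trend of the spread, array weights, or a replicate block, and 3 by adjusted p alone. In MΦs at 1wk Dox the count was 5 with no filter, 3 with no trend, 16 with array weights, and 1 with only the groups compared (0.516, 0.346, 4.74, and 0.256% of all genes, against 2.26%). At 1wk WD against 1wk Dox it was 0 with no trend, 6 with array weights, and 3 with only the groups compared (0, 2.08, and 0.542% of all genes, against 0.0866%). With the replicate block both MΦ comparisons rest on 1wk Dox library 4 alone. The median log2 change of the members was then 0.93 and -0.80. The interaction kept 1 with a pseudocount of 0.1, quantile normalization, or array weights, and 0 with no filter or no trend. Without β cell No Dox libraries 3 and 4, 2 members were called for each change from No Dox, 23 between ECs and β cells, and 29 between MΦs and β cells. Without libraries 1 and 2 there were 15 and 14 between cell types, the members' median log2 difference turned from 0.40 to -0.20 between ECs and β cells and fell from 0.96 to 0.06 between MΦs and β cells, and the log2 change of Cdk6 turned to -1.04 with Dox for 1 week and to -1.27 after withdrawal, and that of Foxm1 to -0.51 at 1wk WD. From 1wk Dox to 1wk WD that of Cdk6 turned to 0.29 with array weights, 0.23 with the replicate block, 0.20 without 1wk Dox library 4, and 0.67 without 1wk WD library 3, and ranged from -0.76 to 0.67 with single libraries left out. Replicate numbers were not taken as pairs, since in no 2 groups checked that share 3 or more numbers was every same-number correlation over 0.1: between ECs and MΦs they were 0.233, 0.469, 0.0818, and -0.177 at No Dox and 0.248, 0.184, -0.0774, and 0.138 at 1wk WD, where 3 of 4 EC libraries correlated best with their own number. The cause of these shifts was not tested. Quantile normalization moved the median of all genes from -0.07 to 0.16 between ECs and β cells and from -0.12 to 0.05 between MΦs and β cells.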
